A study of Mus musculus with 6 samples.

Results

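The regions described here are places where a ChIP-Seq peak for FLAG-tagged Onecut3 was called in one replicate and in neither other replicate. The peaks of the 3 Onecut3-OE FLAG lists were merged where they overlapped by at least 1 bp, and a region on chromosomes 1 to 19 or X was kept when its peaks came from only 1 list. This selected 37578 of 50748 regions (74.0%), of which 19918 were found in replicate 1 only, 3947 in replicate 2 only and 13713 in replicate 3 only. The members were thus chosen by the presence of a peak in each list. Another 8071 regions (15.9%) had a peak in exactly 2 replicates, and 5099 (10.0%) had one in all 3 and serve as the measure of repeated binding.

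The cells were primary mouse embryonic fibroblasts (MEFs) of C57BL/6 strain and p53 KO background, carrying an inducible Onecut3 construct (Retro-X Tet-One). Doxycycline at 100 ng/mL induced Onecut3 in the ONECUT3-OE cells, and the control cells received none. All groups share the p53 KO background, so it is not a variable of the comparison. The series has 6 ChIP-Seq libraries: 3 ONECUT3-OE FLAG, 1 ONECUT3-OE input, 1 ONECUT3-OE IgG and 1 control FLAG, and the lists of the 3 ONECUT3-OE FLAG libraries were analysed. Peak names point to 1 input, used for every list. Signal that the FLAG antibody gives without induced Onecut3 was therefore not subtracted. The labels do not say that the replicates came from separate cultures, so the spread between them may be technical. Read depth is unknown, and peak lists hold no expression, so the labelled cell type could not be checked against marker genes.

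ONECUT factors bind DNA through a CUT domain together with a homeodomain. They are known for roles in the liver, the pancreas and neurons, and their sites carry a short core in which the letters ATCGAT or ATTGAT recur. ChIP-Seq recovers DNA fragments bound by the tagged protein, and a peak caller lists stretches where more fragments pile up than the control predicts. With a permissive threshold such a list also holds weak stretches, so regions called a single time give the level against which repeated calls can be read.

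Some of these regions lay on promoters that hold the palindromic core ATCGAT, which reads the same on both strands. The 6 stretches printed first show that the word occurs inside regions found in a single list and how close to the summit it can lie. Among members that hold the core within the region itself, they are 3 of the highest folds in replicate 1, where Plscr1 ties with Gm8700, the only 1 in replicate 2 and the 2 of highest fold in replicate 3. At Ccdc51, of fold 3.31 in replicate 1, the core lies in the promoter but outside the region. Promoter sequence is from RefSeq (GRCm38.p6), 5′ to 3′ on the strand of the gene, and the capitals mark the core.
Nrtn, replicate 1 only, chr17:56757691-56757746, minus strand: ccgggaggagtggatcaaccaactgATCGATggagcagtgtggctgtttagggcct
Uncx, replicate 1 only, chr5:139543749-139543804, plus strand: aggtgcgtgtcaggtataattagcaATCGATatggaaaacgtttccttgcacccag
Plscr1, replicate 1 only, chr9:92249965-92250020, plus strand: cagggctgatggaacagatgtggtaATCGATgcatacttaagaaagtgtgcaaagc
Wdr13, replicate 2 only, chrX:8132830-8132885, minus strand: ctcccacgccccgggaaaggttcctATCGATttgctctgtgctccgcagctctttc
Insm2, replicate 3 only, chr12:55598933-55598966, plus strand: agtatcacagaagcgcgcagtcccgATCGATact
Poc1b, replicate 3 only, chr10:99106832-99106867, plus strand: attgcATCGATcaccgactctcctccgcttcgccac
Pno1, all 3 replicates, chr11:17211562-17211617, minus strand: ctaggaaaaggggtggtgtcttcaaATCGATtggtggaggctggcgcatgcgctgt
Klhdc10, all 3 replicates, chr6:30401687-30401742, plus strand: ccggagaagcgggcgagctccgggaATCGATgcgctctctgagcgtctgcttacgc

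Nrtn encodes neurturin, a ligand of the GDNF family. Its promoter peak had a fold of 4.03 over the control (q = 0.00125), and the core lay 37 bp from the summit, the base of highest signal. Uncx encodes a homeobox factor, and its peak had a fold of 3.63 (q = 0.0201) with the core 10 bp from the summit. The peak at Plscr1, a phospholipid scramblase gene, had a fold of 3.03 (q = 0.0673) with the core 11 bp away. At Wdr13, a WD repeat gene, the fold was 5.01 (q = 2.01e-05) and the core lay 22 bp from the summit. Insm2, which encodes a zinc finger factor, had 3.82 (q = 0.0116) and 14 bp, and Poc1b, a centriole gene, had 3.50 (q = 0.0430) and 72 bp. The 2 stretches from regions in all 3 replicates are shown for contrast, and their highest folds were 10.9 at Pno1, a ribosome assembly gene, and 10.2 at Klhdc10.

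Regions found in one replicate only were mostly weak. These values come from the calls the rule used, so they are given without a test. The fold over the control is the ratio, at the summit, of the fragments piled up to those expected, each after adding 1. The highest folds were 6.66, 8.63 and 7.01 in replicates 1, 2 and 3, so no list had a lone peak near the highest fold of regions in all 3, which was 22.7 in replicate 1. A q of at most 0.05 was reached by 19.1%, 53.3% and 31.5% of members. Replicate 2, with the shortest list, thus had the highest share of members past this threshold. In replicates 1 and 3, where the pileup could be solved from the fold and p, a typical member rested on 9 fragments, against 14 and 13 for peaks in regions found in all 3. The median width was 232, 222 and 230 bp, and 29.7%, 26.8% and 31.8% of members had the smallest width of their list (201, 196 and 203 bp).

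The share of peaks that stood alone fell steeply with their fold. Below a fold of 3, 80.8% of replicate 1 peaks, 49.3% of replicate 2 peaks and 74.2% of replicate 3 peaks were in no other list. Between 4 and 5 these shares were 26.3%, 20.1% and 26.8%. At a fold of 6 or more they were 1.43% (8 of 561), 1.1% (7 of 639) and 2.32% (13 of 561). Of all their peaks on these chromosomes, 63.1% stood alone in replicate 1, 30.8% in replicate 2 and 55.4% in replicate 3.

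**Figure D1:**
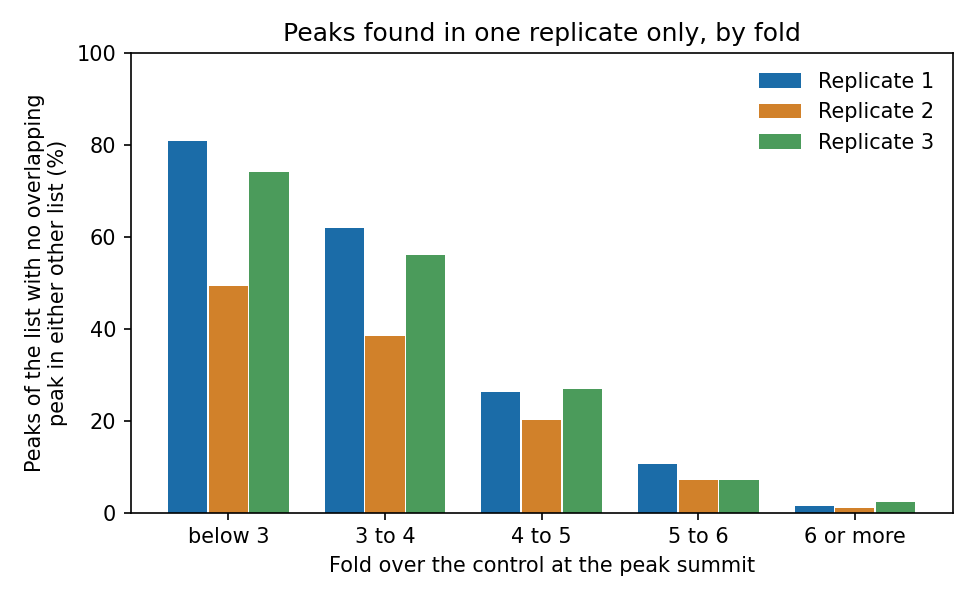
Percent of the peaks of each replicate list that overlapped no peak of either other list (y axis), by the fold over the control at the summit (x axis). The bars of replicate 1 fall from 80.8% below a fold of 3 to 1.43% at 6 or more, and those of replicates 2 and 3 fall to 1.1% and 2.32%.

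The strongest lone peaks, ranked by fold, included several far from any gene. The lowest q of members was 2.24e-23, 4.29e-16 and 1.20e-17 in replicates 1, 2 and 3, at peaks below the highest fold of their list. The highest fold of any member, 8.63 (q = 9.44e-16), was in replicate 2 at chr6:10147743-10147982, 898 kb from the nearest protein-coding gene, Nxph1, which encodes a neurexin ligand. Next in replicate 2 was a region inside Gm4869 with a fold of 7.51, and after it a region of fold 6.52 whose nearest gene, 919 kb away, was Cobl, an actin nucleator. In replicate 3 the regions of highest fold were both at 7.01. They lay inside Carmil1, which encodes a regulator of actin capping, 76.9 kb from its nearer end, and 318 kb from Cfap20dc. In replicate 1 the highest fold was 6.66 inside Gramd4, 2.17 kb from its end, followed by 6.36 at 30.6 kb from Hoxc4, a homeobox gene, and 6.17 inside Sorcs3, a sortilin family receptor gene, 42.3 kb from its end. Of the 15 regions made up of the 5 strongest in each list, the one at Gramd4 was the only one within 3 kb of a gene end. Over the members of fold 5 or more the share within 3 kb was 12.2%, 16.3% and 12.6% in replicates 1, 2 and 3, against 10.3%, 12.0% and 10.4% of all members.

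Some members missed the overlap by very little. At chr6:47358895-47359144, a region 57.6 kb from Cntnap2, a neurexin family gene, replicate 1 had a lone peak of fold 4.03, and the next peak, of fold 2.87 in replicate 3, touched it without a shared base. The same held near Bod1l, where touching peaks of replicates 2 and 3 had folds of 4.18 and 3.13. Peaks 1 bp apart lay near Usp33, a deubiquitinase gene, and inside Ccny, a cyclin family gene. Just outside the rule, regions near Gm40469 and inside Asah2, a ceramidase gene, counted as found in 2 replicates on 2 and 3 shared bases, those near Clec2d and Gm51425 and inside Palld on 4, and one near Htr2a on 7. Such cases were few. Of the two-replicate regions, 15 of 8071 (0.186%) rested on 10 shared bases or fewer. Within 500 bp of a peak of another list lay 3.33%, 6.06% and 3.86% of members of replicates 1, 2 and 3, against 1.16%, 1.75% and 1.39% of bases.

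The first question was whether regions found in a single list still gather at gene ends, and they did to a lesser degree than repeated regions. With a protein-coding gene taken to have a 3 kb window around each of its ends, the midpoint fell in such a window for 10.3% of members of replicate 1 (2058 of 19918), 12.0% of replicate 2 (475 of 3947) and 10.4% of replicate 3 (1431 of 13713). These windows held 8.09% of the bases of these chromosomes. All 3 lists thus lay above the percent of bases, with replicate 2 the highest. The mean was 10.9% ± 0.954 (SD, n = 3 lists), a difference of 2.85 percentage points (exact two-sided sign-flip permutation test over the lists, p = 0.25, the smallest p that 3 lists allow). Regions found in exactly 2 replicates reached 12.9%, and those in all 3 reached 18.2%. Measured list by list, members were 2.22 percentage points below the two-replicate regions of the same list, with an SD of 0.227 over the lists (exact test, p = 0.25). Each two-replicate region counts in both of its lists, so these differences are not independent and their SD understates the spread. The 95% Wilson interval was 9.92% to 10.8% in replicate 1, 11.1% to 13.1% in replicate 2 and 9.93% to 11.0% in replicate 3. The shares rose when weak peaks were left out before merging, so that a lone region could have weaker peaks in the other lists. With a -log10 q of at least 5 they were 16.3%, 19.7% and 17.7%, and regions in exactly 2 and in all 3 lists then stood at 22.9% and 30.5%. All intervals cover counting error only, and bases to which no read can be mapped are part of the background.

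The excess was larger at gene starts than at the far ends. RefSeq promoters gave a strand for 17274 of 21631 protein-coding genes (79.9%), none on chromosome 18. Within 1 kb of the start of such a gene lay 2.65% of replicate 1 members, 3.77% of replicate 2 members and 2.77% of replicate 3 members, against 1.3% of bases. Within 1 kb of the far end lay 1.32%, 1.40% and 1.32%, against 1.31% of bases. The ratio to the percent of bases was therefore 2.04, 2.90 and 2.13 at the start and 1.00, 1.07 and 1.01 at the far end. Regions in all 3 replicates had ratios of 6.53 and 1.09, and two-replicate regions 3.58 and 1.09. Within 3 kb the ratios of members were 1.46, 1.86 and 1.51 at starts and 1.03, 1.14 and 1.00 at far ends, and those of regions in all 3 were 3.28 and 1.22. The ratio at starts was thus lowest for lone regions and highest for regions in all 3 at both distances. Far-end ratios of two-replicate regions varied with the pair of lists, from 0.924 to 1.48 within 1 kb.

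**Figure D2:**
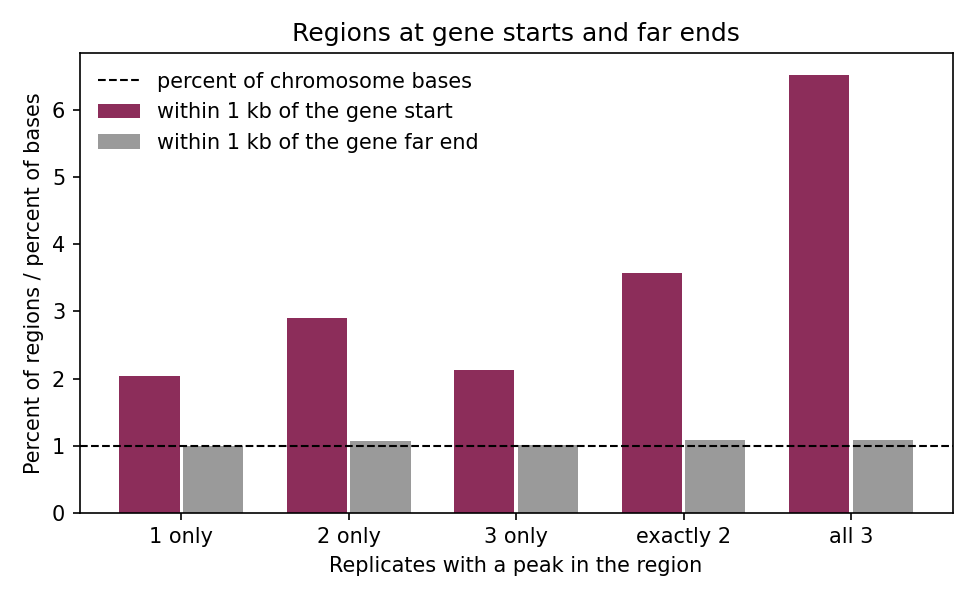
Percent of regions with their midpoint within 1 kb of a gene start or far end, divided by the percent of chromosome bases there (y axis), for regions found in one replicate only, in exactly 2 and in all 3 (x axis). The dashed line is the percent of bases. Bars at starts rise from 2.04 to 6.53 and bars at far ends lie between 1.00 and 1.09.

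Most members lay away from gene ends. Their median distance to the nearest end was 41.4 kb in replicate 1, 36.6 kb in replicate 2 and 42.8 kb in replicate 3, against 27.7 kb for regions in all 3. Inside a protein-coding gene lay 44.4%, 45.3% and 43.9%, where genes hold 39.4% of bases and 49.7% of the regions in all 3. Inside genes longer than 100 kb lay 26.8%, 26.9% and 26.2% (23.5% of bases). Members with q of at most 0.05 were near gene ends at 12.3%, 12.5% and 11.9%, and those above it at 9.87%, 11.5% and 9.78%.

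The second question was whether members lie near regions found in all 3 replicates. They did so more often than bases. Within 10 kb of such a region were 6.64% of replicate 1 members (1322), 8.61% of replicate 2 members (340) and 6.86% of replicate 3 members (941), against 3.70% of bases. The mean was 7.37% ± 1.08 (SD, n = 3 lists), a difference of 3.67 percentage points (exact two-sided sign-flip permutation test, p = 0.25, the smallest possible). Peaks of all kinds are denser on some chromosomes, and with the bases weighted by the chromosomes of the members the background was 4.25%, 4.54% and 4.35%. The ratios were then 1.56, 1.90 and 1.58. Two-replicate regions stood at 9.11%, a ratio of 2.05. Within 1 kb the ratio was 2.16, 2.86 and 1.90, and within 100 kb it was 1.27, 1.39 and 1.31. Even so, the median member was 151 kb, 121 kb and 142 kb from the nearest region in all 3. Members with q of at most 0.05 were within 10 kb at 8.15%, 8.55% and 6.72%, and those above it at 6.28%, 8.69% and 6.93%. Members of fold 5 or more were there at 11.3%, 7.61% and 2.3%. The Wilson interval of that last share, 0.633% to 8.0%, includes the 3.70% of bases. The lists share 1 input as control, and its part in the closeness was not tested.

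**Figure D3:**
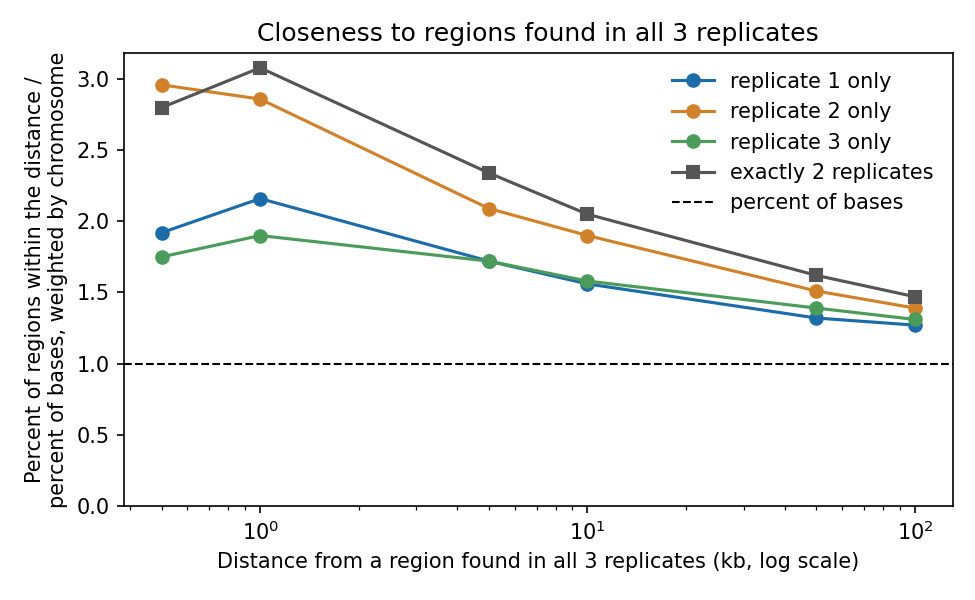
Percent of regions within a given distance of a region found in all 3 replicates, divided by the percent of bases within that distance weighted by chromosome (y axis), against the distance in kb on a log scale (x axis). All curves lie above the dashed line at the percent of bases, and at 10 kb the ratios are 1.56, 1.90 and 1.58 for replicates 1, 2 and 3 and 2.05 for regions in exactly 2 replicates.

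The third question was which genes the members reach. A gene counted as reached when a region came within 3 kb of either end. Members of replicate 1 reached 2285 of 21631 protein-coding genes (10.6%), those of replicate 2 reached 571 (2.64%) and those of replicate 3 reached 1664 (7.69%). Regions in exactly 2 replicates reached 1229 (5.68%), and those in all 3 reached 1165 (5.39%). Together the members reached 4149 genes (19.2%), of which 9 were reached by the lone regions of every list. For each gene class the share of its genes reached by members of replicates 1, 2 and 3 can be read against these percents, and no test of the class was made. Such a share grows with the length of the windows and falls where neighbouring genes share them. Wilson intervals of a class treat its genes as independent within 1 list. They were not corrected for the number of classes read, so an interval above all genes is a description.

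Chemosensory receptor genes were reached at low shares. Olfactory receptors, odorant receptors of the nose that fibroblasts are not known to use, were reached at 42, 7 and 20 of 1110 genes (3.78%, 0.631% and 1.80%), which is 0.358, 0.239 and 0.234 times the percent over all genes. Regions in all 3 replicates reached 1 of them (0.0901%, 0.0167 times). The genes are short, with 7.50 kb of window each against 11.2 kb, and per Mb of window the members numbered 5.41, 0.841 and 2.40, against 10.1, 2.40 and 7.24 over all genes. The share of this class was therefore below that of all genes in every list of lone regions, and the ratio was lower still for regions in all 3. The highest folds were 4.73 near Olfr1352 and 4.46 near Olfr215, both in replicate 2, and 4.24 near Olfr1445 in replicate 1. Vomeronasal receptors, which detect pheromones, were reached at 9, 3 and 6 of 353 genes (2.55%, 0.850% and 1.70%), led by Vmn1r52 with a fold of 4.18. Reads from such near-identical gene copies can be misplaced, so single receptor genes are uncertain.

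Fibroblast genes were reached at higher shares than all genes in replicates 1 and 3. Of 28 fibroblast and extracellular matrix genes, members reached 9 in replicate 1 (32.1%), 2 in replicate 2 (7.14%) and 5 in replicate 3 (17.9%), or 3.04, 2.71 and 2.32 times the percent over all genes. Regions in all 3 reached 6 (21.4%, 3.98 times), while two-replicate regions reached 0, with a Wilson interval up to 12.1%. The Wilson interval in replicate 2, 1.98% to 22.6%, includes the 2.64% of all genes, while the intervals of replicates 1 and 3 begin at 17.9% and 7.88%. Members of highest fold were at Fbn1, which encodes the microfibril protein fibrillin (3.70, replicate 3), S100a4, a calcium-binding protein gene (3.63, replicate 1), and Vim, which encodes vimentin (3.62, replicate 2). Of 28 highly transcribed housekeeping genes, 6, 3 and 4 were reached (21.4%, 10.7% and 14.3%). Only the interval of replicate 2, from 3.71%, lay above the share of all genes in its list. They included Npm1, a nucleolar protein gene (4.84), Ubb, a ubiquitin gene (4.82), and Tubb5, a tubulin gene (3.92).

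Collagen genes were reached at 9, 3 and 3 of 44 (20.5%, 6.82% and 6.82%), and the interval of replicate 1 began at 11.2%, close to the 10.6% of all genes. Regions in exactly 2 replicates reached 0 and those in all 3 reached 1 (2.27%), with intervals up to 8.03% and 11.8% that include the shares of all genes. Col12a1 had a lone peak of fold 5.41 in replicate 3 (q = 4.18e-06) 0.256 kb from a gene end. Col27a1 had 3.63 and Col11a1 had 3.38, both in replicate 2.

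Histone genes were reached through few regions. Members reached 7 of 78 in replicate 1 (8.97%), 10 in replicate 2 (12.8%) and 15 in replicate 3 (19.2%), and regions in all 3 reached 21 (26.9%). The interval of replicate 1, 4.42% to 17.4%, includes the share of all genes, and the differences between lists were not tested. Histone genes stand in tight clusters, and the reached genes rest on 6, 6 and 8 distinct members and on 10 regions in all 3. One region in replicate 2, of fold 4.77, lay near H1f3, a linker histone gene, and H4c6, and another of fold 4.18 lay near H1f1.

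The AP-1 and immediate early genes, which respond within minutes to stimulation, were reached at 0, 3 and 2 of 20 (15.0% in replicate 2 and 10.0% in replicate 3). In replicate 1 the count of 0 has a Wilson interval up to 16.1%, which includes the percent over all genes. The interval of replicate 2 begins at 5.24%, against 2.64% of all genes. Regions in exactly 2 replicates reached 3 of these genes (15.0%, against 5.68%) and regions in all 3 reached 2 (10.0%, against 5.39%). Jun had a lone peak in replicate 2 of fold 4.13 (q = 0.00144) 0.014 kb from a gene end, Nr4a1, a nuclear receptor gene, had 3.87 in the same list, and Myc, a growth regulator, had 3.74 in replicate 3. Hox genes, which pattern the body axis and stand in clusters where neighbours share regions, were reached at 4, 2 and 1 of 39 by members (10.3%, 5.13% and 2.56%). Two-replicate regions reached 12 of them (30.8%, against 5.68% of all genes) and regions in all 3 reached 3 (7.69%). The highest folds of lone peaks were 3.49 at Hoxc12, 3.09 at Hoxc9 and 3.07 at Hoxb2.

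For members, classes tied to cell division had shares whose Wilson intervals included the percent over all genes in each list. Chromosome segregation and mitosis genes were reached at 5, 2 and 1 of 44 (11.4%, 4.55% and 2.27%). Among them were Ccnb1, which encodes cyclin B1 (4.02, replicate 2), Smc4, a condensin subunit gene (3.90, replicate 2), and Kntc1, a kinetochore gene (3.63, replicate 1). DNA replication and G1/S genes were reached at 4, 0 and 4 of 28 (14.3% in replicates 1 and 3). Regions in all 3 reached 5 of them (17.9%, against 5.39% of all genes), with an interval that began at 7.88%. Orc6, a subunit gene of the origin recognition complex, had 4.14 in replicate 3, Mcm3 of the replicative helicase had 3.67 and Rfc1 of the clamp loader had 3.49, both in replicate 1. Of 38 kinesin genes, 3, 0 and 3 were reached (7.89% in replicates 1 and 3), with Kif24 at 3.94, Kif2b at 3.33 and Kif20b at 2.83. The count of 0 in replicate 2 has a Wilson interval up to 12.1% for replication genes and up to 9.18% for kinesins.

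Incenp and Cdca8, which the study names as targets, encode subunits of the chromosomal passenger complex. Incenp was the 1 gene of 4 in that complex reached by a member, in replicate 1 only. Regions in exactly 2 replicates and regions in all 3 each reached 0 of the 4, a count that takes in gene ends only. With 4 genes a count of 0 has a Wilson interval up to 49.0%, which includes the 5.68% and 5.39% of all genes. The replicate 1 region at Incenp, 0.722 kb from a gene end, had a fold of 2.3 (q = 0.199), and 4.96% of the members of its list had a lower fold. Lone regions deeper inside Incenp had 3.29 in replicate 2 and 2.52 in replicate 3, above 38.5% and 8.05% of the members of their lists. Cdca8 had no member within 3 kb of the gene or inside it.

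Most counts of the other classes lay near or below the percent over all genes. Ribosomal protein genes were reached at 8, 2 and 7 of 81 (9.88%, 2.47% and 8.64%), 0.935, 0.935 and 1.12 times all genes, while regions in all 3 reached 9 (11.1%, 2.06 times). Rpl7a had 4.29, Rpl15 had 4.14 and Rpl28 had 4.03. C2H2 zinc finger factor genes were reached at 44, 8 and 34 of 389 (11.3%, 2.06% and 8.74%), led by Zfp458 (5.09), Zfp318 (4.78) and Zfp169 (4.63), and solute carrier genes at 36, 11 and 28 of 373 (9.65%, 2.95% and 7.51%), led by Slc10a5 (4.83), Slc46a1 (4.46) and Slc9c1 (4.24). Ion channel subunit genes were reached at 10, 6 and 9 of 134, or 7.46%, 4.48% and 6.72% (Cacna2d2 at 4.46, Kcnh6 at 4.39 and Kcnj10 at 4.18). Cytochrome P450 genes, enzymes of drug and steroid metabolism, were reached at 12, 1 and 5 of 98, or 12.2%, 1.02% and 5.10% (Cyp3a41b at 4.24, Cyp2c23 at 4.03 and Cyp27a1 at 3.94).

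Protocadherin genes were reached at 4, 0 and 5 of 69 (5.80% in replicate 1 and 7.25% in replicate 3), with Pcdh19, an adhesion gene on the X chromosome, at 4.84. Keratin and keratin-associated genes were reached at 5, 3 and 4 of 109 (4.59%, 2.75% and 3.67%), led by Krtap4-8 at 3.82, and defensin genes at 3, 2 and 4 of 71 (4.23%, 2.82% and 5.63%), led by Defb48 at 3.99. Among markers of other cell types, hepatocyte genes were reached at 3, 0 and 2 of 20 (Cps1, the entry enzyme of the urea cycle, at 3.33), neuronal genes at 1, 1 and 0 of 24 (Nlgn1 at 3.10) and blood cell genes at 1, 1 and 0 of 20 (Gata1, an erythroid factor, at 3.62). These are shares of 15.0%, 0% and 10.0% for hepatocyte genes, 4.17%, 4.17% and 0% for neuronal genes and 5.0%, 5.0% and 0% for blood cell genes, and every interval includes the share of all genes. Peaks mark DNA and not RNA, so these counts say nothing of the presence of such cells.

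**Figure D4:**
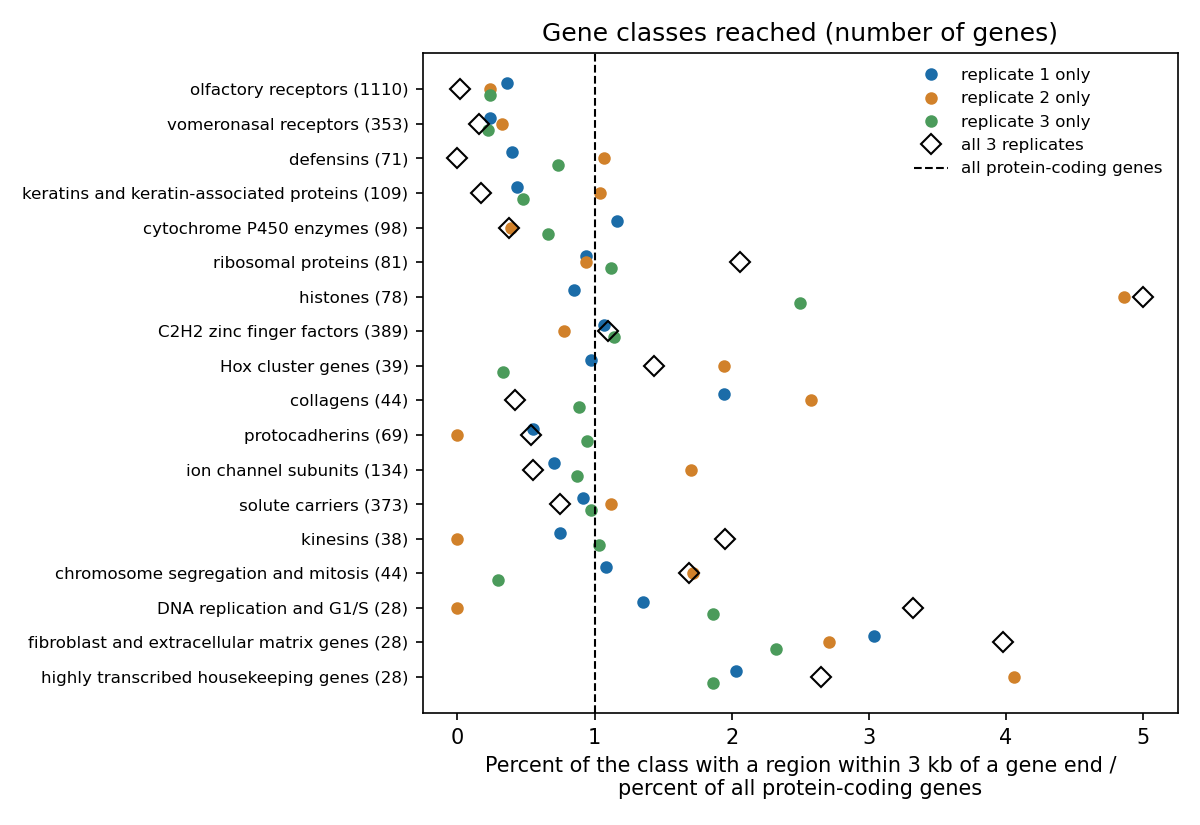
Percent of the genes of a class with a region within 3 kb of an end, divided by the percent over all protein-coding genes (x axis), for the classes of 28 genes or more (y axis, number of genes in parentheses). Circles are regions found in one replicate only and diamonds are regions in all 3. Olfactory receptors lie at 0.358, 0.239 and 0.234 for the lone regions and 0.0167 for regions in all 3, and fibroblast genes lie at 3.04, 2.71, 2.32 and 3.98.

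The 9 genes reached by lone regions of every list included H2aj, a histone gene, where regions of fold 2.95, 3.0 and 3.18 in replicates 1, 2 and 3 lay side by side, those of replicates 2 and 3 at a gap of 248 bp. At Uncx the lone peaks of replicates 1 and 2 were 45 bp apart, at chr5:139543679-139543914 and chr5:139543438-139543633, and their folds were 3.63 and 2.90. The core printed for Uncx lies in the replicate 1 region. Replicate 3 had a peak of fold 2.55 farther off, 2.29 kb from a gene end. Tmem151b, a membrane protein gene, had lone peaks of 3.94 and 2.42 in replicate 1, 3.22 in replicate 2 and 3.18 in replicate 3. Neighbours Gm40365 and Gm36327 shared their regions, which had folds of 1.59 to 1.83 and of 2.59 for 1 region near Gm40365 alone. None of these 5 genes was reached by a region in all 3 replicates. They are the 5 of the 9 with most lone regions per length, so their close peaks are a description.

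The palindromic ONECUT core was rarer on promoters under all lone regions than under all repeated ones. Promoters here are windows of 250 bases before to 50 after a gene start, 32619 in all and none on chromosome 18, and 304 of them (0.932%) hold ATCGAT. In replicates 1, 2 and 3, 290, 82 and 220 members lay on promoters, which is 1.50%, 2.13% and 1.65% of members on the chromosomes with promoters, against 7.04% of regions in all 3. They covered part of 342, 102 and 259 promoters, since promoters can overlap. ATCGAT stood in 8 (2.34%), 1 (0.98%) and 4 (1.54%) of these promoters. Regions in exactly 2 replicates had it in 28 of 352 (7.95%) and those in all 3 in 49 of 431 (11.4%). The Wilson intervals were 1.19% to 4.55%, 0.173% to 5.35% and 0.602% to 3.90% for the lone regions, and 8.71% to 14.7% for regions in all 3. List by list the share was thus above that of all promoters beyond counting error in replicate 1 alone, and all 3 intervals of lone regions lay below that of regions in all 3. Lone regions of the lists together had the word in 13 of 702 promoters (1.85%, interval 1.09% to 3.14%), 8 of them under replicate 1 members. Among regions with a highest fold below 4 the word stood in 1 of 53 promoters (1.89%) for regions in all 3, 5.45% for two-replicate regions and 1.77% for lone regions. The interval for regions in all 3, 0.334% to 9.94%, includes both other shares. At that strength the counts are too few to place regions in all 3 above or below lone ones. Promoters that overlap share bases, so their counts are not independent.

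The second core, ATTGAT on either strand, was more common in lone regions. It is found in 2449 of all promoters (7.51%), and in 16.1%, 10.8% and 13.1% of those under members of replicates 1, 2 and 3. Two-replicate regions had it in 21.3% and regions in all 3 in 27.1%. The intervals of replicates 1 and 3 begin at 12.6% and 9.55%, above all promoters, and that of replicate 2 begins at 6.13%. Members with q above 0.05 had the word at 63 of 453 promoters (13.9%) and those with q of at most 0.05 at 37 of 249 (14.9%), with Wilson intervals of 11.0% to 17.4% and 11.0% to 19.8%. Promoters under members also had a higher GC content, 56.4%, 57.6% and 56.9% against 53.9%, and more CG pairs per promoter, 16.5, 17.6 and 17.6 against 12.5.

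The other orders of the same letters were counted beside the core. Within the promoter bases that members cover, ATTGAT occurred 93.4 times per 100 kb, against 28.4 in all promoters, a ratio of 3.29. The 59 other orders of its letters together had a ratio of 0.871, and the median word occurred 25.5 times per 100 kb. Of the 59 words, 1 had a ratio at or above that of ATTGAT, namely TATTGA with 3.44, which overlaps the core in 40 of its 86 occurrences as TATTGAT. List by list the ratio of ATTGAT was 3.63, 2.86 and 3.0, against 0.919, 0.717 and 0.864 for the other orders together. TATTGA alone had 3.8, 2.75 and 3.21. It overlapped the core as TATTGAT in 26 of 46, 1 of 9 and 13 of 31 occurrences. In regions found in all 3 the ratio of ATTGAT was 4.61, against 0.788 for the other orders together and 3.51 for TATTGA. For ATCGAT the count was 11.7 per 100 kb under members, on 11 occurrences, against 2.98 in all promoters, while the palindromes of the same letters gave 2.12 for TTCGAA, 12.7 for AACGTT and 4.25 for TACGTA, against 5.26, 6.35 and 3.21. Lone regions thus had more ATCGAT than AACGTT relative to all promoters, on few occurrences, and two-replicate regions had 42.2 of ATCGAT against 6.75 of AACGTT.

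The core also lay toward the summits of lone peaks. Of 88 occurrences of ATTGAT in promoter bases under members, 58 (65.9%, Wilson interval 55.5% to 75.0%) were within 50 bp of the summit, where 41.2% of those bases lie. The other orders of the letters were within 50 bp at 43.1%. By list the share was 59.6% of 47, 70.0% of 10 and 74.2% of 31, against 40.4%, 42.4% and 41.6% of bases. The interval of replicate 2, 39.7% to 89.2% on 10 occurrences, includes its share of bases. In regions found in all 3 replicates, 73.1% of 108 occurrences were within 50 bp of the summit of the strongest peak, against 28.9% of bases. ATCGAT was within 50 bp in 7 of 11 occurrences under members, an interval of 35.4% to 84.8% that includes the 41.2% of bases, and in 38 of 42 under regions in all 3. The strongest lone promoter peak with a core in replicate 1 was that of Sncg, which encodes gamma-synuclein, with a fold of 5.10. The 236 bases of its promoter that the peak covers are shown as an example of the second core, written here as its reverse complement in capitals.
Sncg, replicate 1 only, chr14:34374620-34374855, minus strand: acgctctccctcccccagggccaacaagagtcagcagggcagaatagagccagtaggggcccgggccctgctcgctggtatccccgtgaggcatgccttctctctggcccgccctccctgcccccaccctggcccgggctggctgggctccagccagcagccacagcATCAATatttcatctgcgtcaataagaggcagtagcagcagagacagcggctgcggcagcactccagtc

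**Figure D5:**
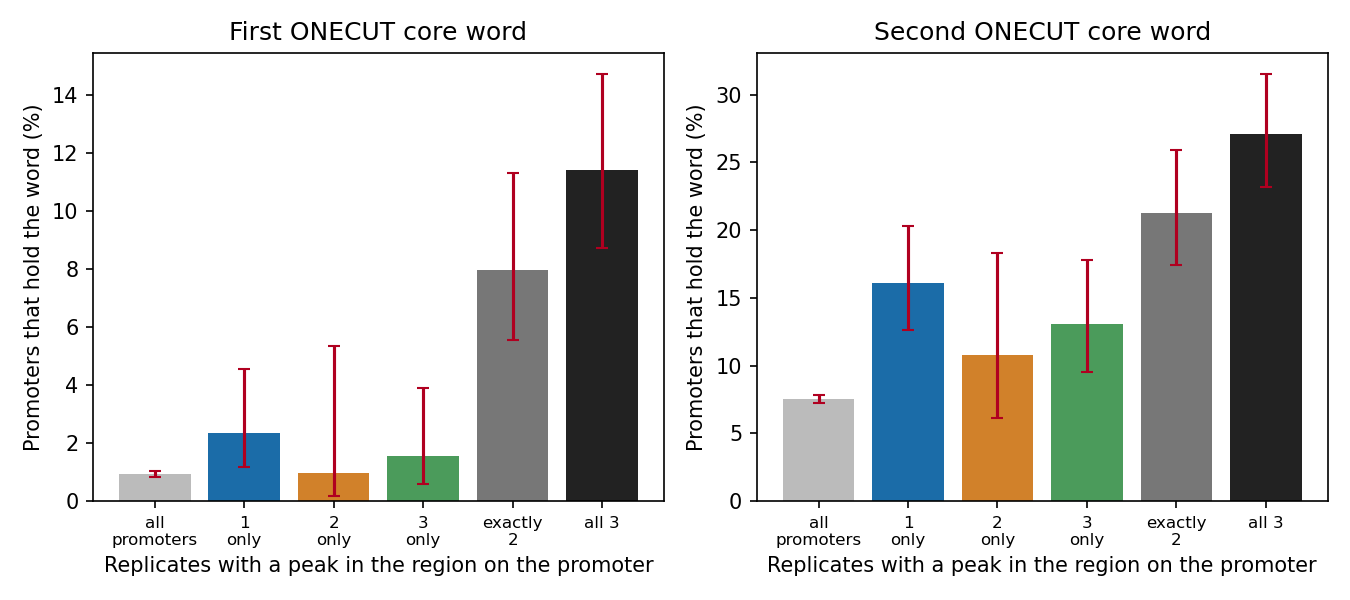
Percent of promoters that hold ATCGAT (left) or ATTGAT on either strand (right) (y axes), for all promoters and for promoters under regions found in one replicate only, in exactly 2 or in all 3 (x axes). Bars are shares and error bars are 95% Wilson intervals; ATCGAT rises from 0.932% of all promoters to 11.4% under regions in all 3, and ATTGAT from 7.51% to 27.1%.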

How the data were processed

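The authors deposited 1 peak list for each ONECUT3-OE FLAG library. Their processing notes name Bowtie2 2.2.6, MACS2 2.1.0 and deepTools 3.3.2 and the build GRCm38 but not what each was used for. The deposited lists give a fold (a ratio to the expected background), -log10 p-values and -log10 q-values, a score and the summit offset for each peak. How reads were filtered is not given in the sources used here. Peak number and fold move with depth, which is unknown, so values were used within a list.

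The members, gene classes and tests were chosen with earlier results of these data known. Gene positions and promoters came from RefSeq tables of GRCm38.p6. The plan named gene starts where strand is given. Strand was found for part of the genes only, so either end stayed the main measure. No genome was used, so motifs were searched in promoters alone, and all orders of the letters, the palindromes, the distance to the summit, starts against far ends, gene types and chromosomes were chosen after the data were seen. Backgrounds are exact percents of bases between the first and last annotated gene or peak of each chromosome (2610 Mb). Lists were compared by an exact two-sided sign-flip permutation test. Pileups were solved to a tolerance of 0.001 in -log10 p for 100.0% of peaks in replicates 1 and 3 and 0.172% in replicate 2. Named genes are those nearest the 5 strongest regions of each list and the 3 regions on each side of the overlap limit, up to 3 genes per class of 23 by fold, the 5 densest genes reached in all lists, and Incenp and Cdca8; genes printed with sequences and those with most regions were chosen after their values were seen. Some genes these rules name are not reported here. Scripts were tested on simulated data. Values were computed in Python 3.11.15 with pandas 2.3.3 and numpy 2.4.6, intervals with scipy 1.17.1, and plots were drawn with matplotlib 3.10.9.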

Additional observations from a re-analysis of the deposited data

How the results depend on the processing

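Over 48 alternatives no value was reversed, and the 23 that bear on a test kept its direction, with p at the smallest the lists allow. With a -log10 q of at least 5 the share near gene ends was 17.9% against 10.9% (2.21 against 1.35 times the bases) and that near regions in all 3 was 1.19% against 7.37% (3.3 against 1.99 times), since fewer regions in all 3 remain. The number of regions in one replicate was 14284 with only peaks of q at most 0.05 and 2074 with a -log10 q of at least 5. It was 24222 to 37426 with a list left out, lowest without replicate 1. The mean percent of genes reached was 0.73% at the same -log10 q limit of 5, 2.3% for members of q at most 0.05 and 16.0% with a 10 kb window, against 6.97%. Promoters with either core were 15.0% as the mean over lists, 1.62% for ATCGAT alone, and 20.4% to 21.9% with a list left out (20.8% without replicate 1, 20.4% without replicate 2 and 21.9% without replicate 3), where a former two-replicate region counts as found in one. With 1 list left out, closeness to regions in all remaining lists was 10.5% to 12.0% against 7.37%, and p cannot fall below 0.5. Weighting bases by chromosome, the gene-end shares of repeated regions at a -log10 q of at least 5, and the motif in members of q at most 0.05 (16.7%), were chosen after seeing the data. No paired analysis was possible because the groups share only replicate number 1 and the lists are all of 1 group. Unknown depth limits any comparison of counts between lists.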

Other observations

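Genes that make transfer RNA, the adaptors of translation, were reached by members more often than protein-coding genes. Of 408 tRNA genes, 56, 23 and 53 had a lone region of replicates 1, 2 and 3 within 3 kb, and 35 had a region in all 3. Their windows held 24.6, 9.28 and 22.6 members per Mb, against 10.1, 2.40 and 7.24 around protein-coding genes. The tRNA windows also held 15.3 regions in all 3 per Mb, against 4.99, so the higher density was not limited to lone regions. Members per Mb numbered 9.47, 1.84 and 6.04 for lncRNA genes and 8.84, 2.28 and 6.56 for miRNA genes. They numbered 8.66, 1.59 and 9.15 for snoRNA genes and 6.87, 1.34 and 4.41 for pseudogenes. Immunoglobulin and T cell receptor V segments, which are used in lymphocytes, had 3.12, 0.390 and 1.95 per Mb and no region in all 3. Genes of 1 type that stand in clusters share windows, and near-identical copies of tRNA genes can split reads.

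Members were spread unevenly over chromosomes. Chromosome 19 had 15.8, 5.13 and 13.7 per Mb in replicates 1, 2 and 3, against medians of 7.30, 1.48 and 5.14 over the chromosomes, and chromosome 7 had 3.25, 0.440 and 1.98. The X chromosome had 4.62, 0.767 and 3.21, with 0.351 regions in all 3 per Mb against a median of 1.97, so that 86.6% of its regions were found in one replicate, against 70.2% on chromosome 19.

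Genes with many members were long. Prkg1, a cGMP-dependent kinase gene on chromosome 19, held or adjoined 72 (29, 16 and 27 in replicates 1, 2 and 3), Macrod2 53, and Lrp1b and Lrrc4c 37 each. Per 100 kb this was 5.97 for Prkg1, 2.65 for Macrod2 and 1.79 for Lrp1b. Chromosome 19, with Prkg1, had 15.8, 5.13 and 13.7 members per Mb in replicates 1, 2 and 3. Chromosome 2, with Macrod2 and Lrp1b, had 10.5, 1.93 and 7.07. Over the lists together, Prkg1 and Macrod2 were thus denser than their chromosomes and Lrp1b was not.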
